A study of Mus musculus with 5 samples.

Results

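Solute carriers are membrane proteins that move nutrients, ions, metals and metabolites across the cell surface and the membranes of organelles without hydrolysing ATP themselves. The members described here are the genes whose symbol begins with Slc and a family number, leaving out the monocarboxylate transporters of the SLC16 family. They were found by symbol among array rows paired with a single gene, and the row with the highest mean was kept for each gene. This gave 227 of the 12267 genes tested, from 50 families, and 224 of them are among 361 protein-coding genes of this naming in the mouse reference table (the others of the 361 were not analysed here). Of the 227, at least 5 encode no transporter: the scaffold proteins Slc9a3r1 and Slc9a3r2, the opposite-strand transcripts Slc6a19os and Slc36a1os, and the pseudogene Slc25a5-ps.

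The tested cells were CD4+ CD8- (CD4SP) thymocytes from mice carrying a transgene for PLZF, the zinc finger transcription factor that directs innate-like T cell development, with 3 arrays. CD4SP thymocytes of wild type mice gave 2 arrays. Both groups were sorted by flow cytometry from thymi of C57BL/6J mice aged 4 to 6 weeks, and each sample pooled several mice. The labels name neither the promoter that drives the transgene nor the number of mice per pool. The samples are labelled biological replicates, so p values measure the spread between these pools of mice.

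In thymocytes and T cells, carriers supply what growth and activation demand. System A and system L carriers bring in amino acids, GLUT proteins bring in glucose, and zinc and iron carriers set the metal supply of signalling and of mitochondria. Carriers of the inner mitochondrial membrane exchange metabolites, nucleotides and phosphate with the cytosol, and those of the Golgi supply the sugars for glycosylation.

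Levels are log2(intensity + 1) of the deposited values, and changes are PLZF transgenic minus wild type on that scale. Median intensities of the 5 arrays ran from 59.0 to 60.3. Of the 18 listed T cell identity genes 9 were measured, with mean levels from 9.12 to 12.03, and 0 rose and 4 fell, where 1.72% of all genes rose and 3.02% fell. The adhesion receptor gene Cd2 fell by 1.11, Cd5 by 0.36, Ptprc, which encodes CD45, by 0.35 and the costimulatory receptor gene Cd28 by 0.21. Skap1 went the other way, with a change of 0.24 and every transgenic array high, and did not pass (limma adjusted p = 0.164). Cd247, Ptprcap, Themis and Cd6 had changes of -0.22, -0.03, -0.02 and -0.02 and did not pass. The list averaged 10.64 to 10.66 in the transgenic arrays and 10.85 to 10.91 in the wild type arrays. Cd4, Cd8a and Zbtb16, which encodes PLZF, were not analysed here. The 1 measured CD8 lineage gene did not pass, and neither did the 18 measured markers of B cells, myeloid cells, erythroid cells and thymic epithelium. These 18 markers' mean levels lay between 4.53 and 7.02. The 5 measured myeloid markers averaged 6.21 to 6.27 in the transgenic arrays and 6.39 to 6.66 in the wild type arrays, and the part of either list in the results was not tested. In RNA of sorted populations, fewer cells of a type and less transcript per cell cannot be told apart.

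Transcripts higher in PLZF transgenic CD4SP cells were those of the zinc importer Slc39a4, the organic cation and carnitine family member Slc22a4, the mitochondrial iron importer Slc25a37 and, by a small margin, the riboflavin transporter Slc52a3. Transcripts lower in these cells were those of the peptide transporter Slc15a1, the mitochondrial aspartate-glutamate carrier Slc25a12, the lysosomal membrane protein Slc49a4, the vesicular nucleotide transporter Slc17a9 and 7 more members. Of the 227 members 4 rose and 11 fell at a limma p below 0.05 after Benjamini-Hochberg adjustment over all genes. The share called was 6.61% of the members, against 4.74% of all genes tested. By direction, 1.76% of the members rose, against 1.72% of all genes, and 4.85% fell, against 3.02%. The median change was 0 among the members and 0 among all genes, and 168 members (74.0%, against 67.0% of all genes) changed by at most 0.1. The members' changes ran from -1.60 for Slc15a1 to 1.14 for Slc39a4.

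**Figure D1:**
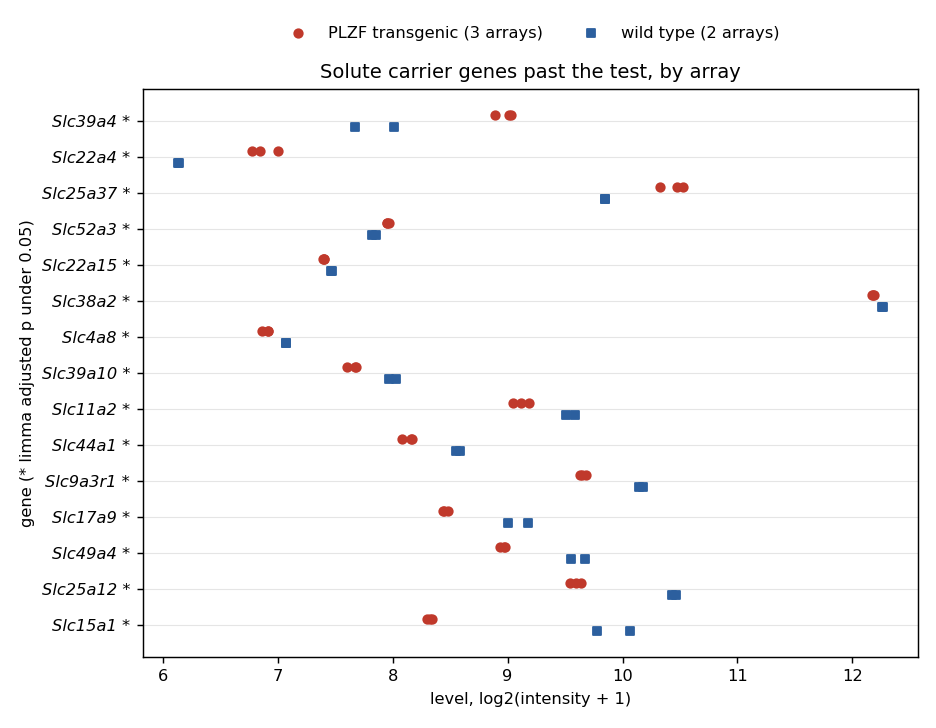
Level of the 15 solute carrier genes past the test in each array, on the x axis as log2(intensity + 1), with the 3 PLZF transgenic arrays as circles and the 2 wild type arrays as squares. In each of the 15 genes the groups do not overlap, with the widest gap at Slc15a1 and gaps of about the width of a symbol at Slc22a15 and Slc38a2.

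The transgenic arrays lay apart from both wild type arrays in 55 members, or 24.2% of the members, against 27.7% of all genes. They were higher in 25 of these and lower in 30, against 12.6% and 15.1% of all genes. The deposited table holds many identical values, and how they arose is not known from the sources used here. Such ties give variances at or near 0 that enter the moderated test, so p values depend on them, and a value repeated in all arrays may not be a separate measurement in each. The prior variance had 0.5 degrees of freedom in the fit of all genes and 2 in that of genes with 5 different values. All 5 arrays had the same value in 49 members, some arrays shared a value in 127, and 51 members had 5 different values (22.5%, against 32.8% of all genes). Of the 15 members past the test, 12 were among these 51, and 3 (Slc22a15, Slc4a8 and Slc52a3) had 4 different values. Of all genes with 5 different values, 13.0% passed. When the fit was restricted to these genes, 21 of the 51 members passed, 5 higher and 16 lower, against 25.9% of the genes tested. After cyclic loess 8 members rose and 15 fell, where 7.86% of all genes passed. After quantile normalization 11 rose and 13 fell, where 9.23% of all genes passed.

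The calls depended on single arrays, over the whole table as among the members. None of the 227 members passed without PLZF transgenic replicate 1 or 3, and Slc4a8 alone passed without replicate 2. Of all 12267 genes, 4, 45 and 10 passed without transgenic replicate 1, 2 and 3. Without wild type replicate 1 there were 35 members higher and 37 lower, where 23.6% of all genes passed. Without wild type replicate 2 there were 22 and 16, where 15.1% of all genes passed. Among genes with 5 different values, 14 to 20 members passed when each array was left out in turn, where 12.7% to 26.3% of the genes tested did. The sizes moved less than the calls: with 1 array left out the change of Slc15a1 ran from -1.74 to -1.46 and that of Slc39a4 from 0.97 to 1.31, and none of the 15 crossed 0.

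**Figure D2:**
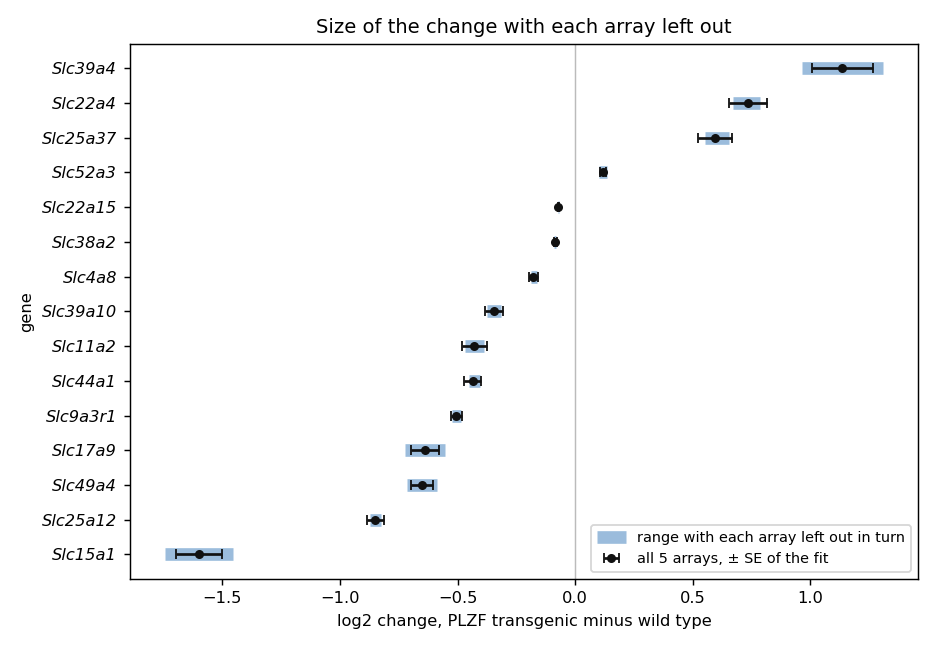
Log2 change, PLZF transgenic minus wild type, of the 15 genes past the test. Points with bars give the change with all 5 arrays ± SE of the fit, and the pale bands give the range when each array is left out in turn. No band reaches 0.

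Organic ions, peptides, vitamins, nucleosides and lipids formed the widest group, with 57 genes measured. Of these 2 rose and 4 fell, where 1.72% of all genes rose and 3.02% fell, and the median change was 0. Slc15a1 encodes PEPT1, the proton-coupled transporter of dipeptides and tripeptides best known from the intestine. Its level was 8.30, 8.34 and 8.32 in the PLZF transgenic arrays, against 9.78 and 10.06 in the wild type arrays. The transgenic arrays were low and close together, and the groups did not overlap. This is a change of -1.60 ± 0.10 (SE), 3.03-fold lower at a limma adjusted p of 0.0170. Slc15a1 passed in 16 of 21 alternative fits, some of which were added after seeing the data. It missed the threshold with the replicate number as a block, with array weights and with each transgenic array left out in turn. The other peptide transporters measured did not pass. Slc15a2, which encodes the high-affinity peptide transporter PEPT2, had levels of 9.26, 9.51 and 8.78 in transgenic and 9.15 and 9.83 in wild type arrays, so the groups overlapped.

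Slc17a9, the vesicular nucleotide transporter that loads ATP into secretory vesicles, had levels of 8.43, 8.45 and 8.48 in PLZF transgenic arrays, against 9.01 and 9.18 in wild type arrays. It fell by 0.64 ± 0.06 (SE, limma adjusted p = 0.0325) and passed in 16 of 21 alternatives. Slc44a1, a choline transporter of the cell surface and mitochondria, had 8.17, 8.16 and 8.08 in transgenic arrays, against 8.59 and 8.55 in wild type arrays, a change of -0.43 ± 0.04 (SE, limma adjusted p = 0.0243). In both genes every transgenic array was low. Slc22a15, an organic ion transporter, passed with a change of only -0.07 (limma adjusted p = 0.0111). Its other rows on the array differed by -0.30 and 0.50, and it did not pass after median centring, after quantile normalization or with the mean of its rows.

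Slc22a4, which encodes OCTN1, a transporter of ergothioneine and organic cations, was the second largest rise among the members. It had levels of 7.01, 6.85 and 6.78 in PLZF transgenic arrays, against 6.15 and 6.13 in wild type arrays. The groups did not overlap. It rose by 0.74 ± 0.08 (SE), 1.67-fold, at a limma adjusted p of 0.0414. The 2 dimmer rows of Slc22a4 differed by -0.08 and -0.04, and with the mean of the 3 rows the change was 0.21 and did not pass. Slc22a4 passed in 11 of 20 alternatives, with all the refits added after seeing the data among the 11. In fits of all genes it missed with the replicate number as a block, array weights, the intensity trend and robust fit, and each transgenic array left out. Slc22a21 and Slc22a5, the carnitine transporter OCTN2, lie next to it in the reference annotation, and their changes were 0.02 and 0.08 (limma adjusted p = 0.662 and 0.592). Slc52a3, which carries riboflavin, had 7.95, 7.97 and 7.95 in transgenic arrays, against 7.82 and 7.86 in wild type arrays. Its change of 0.12 ± 0.01 (SE) passed at a limma adjusted p of 0.0469, and it passed in 7 of 14 alternatives.

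The other members of this group that T cells are known to use did not pass. Slc19a1, the reduced folate carrier, had a change of -0.07, Slc29a1, the nucleoside transporter ENT1, of -0.05, and Slc14a1, a urea transporter, of 0.09. Slc46a1 and Slc27a6 are not on the list of transporters known in T cells and were named for the size of their rise. Slc46a1, the proton-coupled folate transporter, averaged 7.61 ± 0.14 (SD, n = 3) in transgenic and 7.28 ± 0.16 (SD, n = 2) in wild type arrays (limma adjusted p = 0.357). The fatty acid transport protein gene Slc27a6 averaged 6.13 ± 0.06 (SD, n = 3) in transgenic and 5.74 ± 0.11 (SD, n = 2) in wild type arrays (limma adjusted p = 0.0811), and it passed among genes with 5 different values (limma adjusted p = 0.0185, and 0.0185 to 0.484 over its alternatives).

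**Figure D3:**
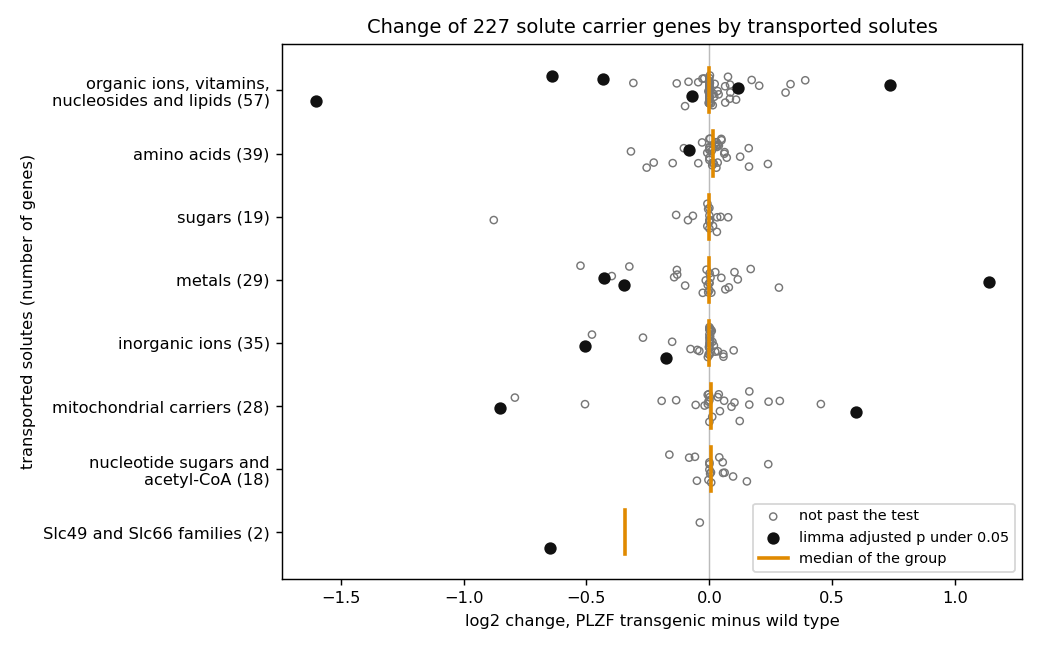
Log2 change, PLZF transgenic minus wild type, of the 227 solute carrier genes, in rows by transported solutes with the number of genes in each. Filled points passed the test, open points did not, and the orange lines are the medians of the groups, all within 0.02 of 0 except in the row of 2 genes, Slc49a4 and Slc66a2.

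The promoter windows of Slc15a1, Slc25a12 and Slc22a4 are printed to show the sequence at the starts of the 3 members with the widest changes among those that passed the test and had a window. They come from RefSeq (GRCm38.p6), in which 176 of the 227 members had a window of 250 bases before to 50 bases after a start, Slc39a4 and Slc25a37 not among them. Capitals mark E-boxes (CANNTG, the same on both strands), the motif bound by the E proteins of thymocytes. E-boxes were found in 72.3% of 32851 windows and in 73.7% of the members' 224 windows. Slc15a1 at chr14:121505205-121505504 on the minus strand held 2, Slc25a12 at chr2:71367706-71368005 on the minus strand 2, and Slc22a4 at chr11:54028055-54028354 on the minus strand 1. The Slc22a4 window also held 4 metal response element cores, a motif described with the zinc carriers, and the Slc15a1 window 1. A match describes letters and not binding.
Slc15a1: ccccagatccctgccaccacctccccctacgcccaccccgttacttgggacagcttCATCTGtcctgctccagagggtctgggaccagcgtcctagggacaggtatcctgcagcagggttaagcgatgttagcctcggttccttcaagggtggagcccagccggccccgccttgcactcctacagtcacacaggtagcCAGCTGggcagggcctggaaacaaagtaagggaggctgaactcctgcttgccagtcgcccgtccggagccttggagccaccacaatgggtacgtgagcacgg
Slc25a12: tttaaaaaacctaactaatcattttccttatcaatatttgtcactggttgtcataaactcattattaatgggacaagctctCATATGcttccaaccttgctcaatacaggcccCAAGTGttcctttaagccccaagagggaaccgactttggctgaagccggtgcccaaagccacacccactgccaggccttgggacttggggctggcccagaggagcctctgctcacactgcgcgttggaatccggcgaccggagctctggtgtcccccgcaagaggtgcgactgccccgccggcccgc
Slc22a4: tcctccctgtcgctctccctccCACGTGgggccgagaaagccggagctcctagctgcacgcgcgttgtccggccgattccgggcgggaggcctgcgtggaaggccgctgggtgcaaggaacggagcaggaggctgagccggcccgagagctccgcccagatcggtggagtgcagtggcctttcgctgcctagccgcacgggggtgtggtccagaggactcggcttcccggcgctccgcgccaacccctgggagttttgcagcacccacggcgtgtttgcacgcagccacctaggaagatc

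Metal carriers moved in both directions. Of 29 measured, 1 rose and 2 fell, where 1.72% of all genes rose and 3.02% fell, and the median change was 0. Slc39a4 encodes ZIP4, an importer that takes up dietary zinc in the intestine. Its level was 8.90, 9.01 and 9.03 in PLZF transgenic arrays, against 7.67 and 8.02 in wild type arrays. Every transgenic array was high, by more than the gap between the wild type arrays. It rose by 1.14 ± 0.13 (SE), 2.20-fold, at a limma adjusted p of 0.0432, and it passed in 15 of 21 alternatives, with the intensity trend and robust fit among those it missed (limma adjusted p = 0.0584). Slc39a10, which encodes the surface zinc importer ZIP10, had 7.68, 7.60 and 7.68 in transgenic arrays, against 8.03 and 7.97 in wild type arrays. It fell by 0.35 ± 0.04 (SE, limma adjusted p = 0.0386). The gene passed in 11 of 21 alternatives and missed the intensity trend and robust fit (limma adjusted p = 0.0525).

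**Figure D4:**
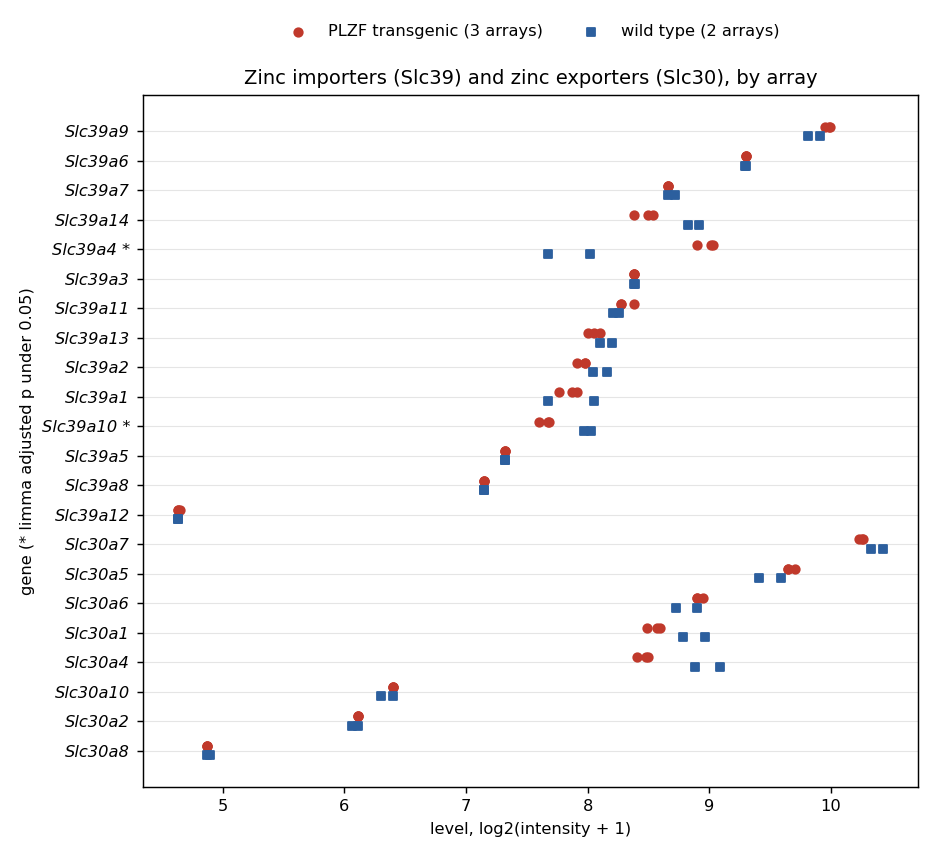
Level of 14 zinc importer genes (Slc39) and 8 genes of the Slc30 family, which moves zinc out of the cytosol, in each array, on the x axis as log2(intensity + 1). Circles are the 3 PLZF transgenic and squares the 2 wild type arrays. Slc39a4 is the widest separation to the right and Slc30a4 the widest to the left.

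None of the 8 measured genes of the Slc30 family passed over all genes. Slc30a1, the zinc exporter ZnT1 of the cell surface, had 8.57, 8.49 and 8.60 in transgenic arrays, against 8.97 and 8.79 in wild type arrays (limma adjusted p = 0.142). Slc30a4, the vesicular transporter ZnT4, had 8.48, 8.49 and 8.41 in transgenic arrays, against 8.88 and 9.09 in wild type arrays (limma adjusted p = 0.0666). The importer gene Slc39a14 had 8.38, 8.54 and 8.50 in transgenic arrays, against 8.82 and 8.92 in wild type arrays (limma adjusted p = 0.0768). The transgenic arrays were low in each, without overlap, and all 3 passed in the fit of genes with 5 different values (limma adjusted p = 0.0372, 0.0112 and 0.0172). Over all alternatives their limma adjusted p ran from 0.0040 to 0.626, and all 3 are named for values already seen. Slc39a6 had a change of 0.0009 with nearly identical values, Slc39a9 of 0.12, Slc30a5 of 0.17 and the Golgi transporter gene Slc30a7 of -0.13, and none of them passed. The dimmer row of Slc30a5 went the other way (-0.24), with every transgenic array low.

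Slc30a1 is a known target of the zinc-sensing factor MTF1, which binds metal response elements. The core of this element, searched as TGCACNC or TGCGCNC on both strands, occurred in 25.7% of all windows and in 31.7% of the members' windows. The Slc30a1 window at chr1:191906531-191906830 on the plus strand held 2 matches, in capitals here, and neither window of Slc39a10 held one. The Slc30a4 window held 3 and that of the scaffold gene Slc9a3r1 held 1, while those of Slc25a12, Slc49a4 and Slc5a3 held none. Mtf1 itself had a change of -0.02 and did not pass.
Slc30a1: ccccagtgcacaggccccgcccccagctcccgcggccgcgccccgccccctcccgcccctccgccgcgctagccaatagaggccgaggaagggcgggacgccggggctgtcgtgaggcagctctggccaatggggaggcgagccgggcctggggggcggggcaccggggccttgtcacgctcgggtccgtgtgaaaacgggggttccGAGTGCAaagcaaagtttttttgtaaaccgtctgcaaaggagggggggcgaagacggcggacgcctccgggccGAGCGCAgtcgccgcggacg

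Of the iron carriers, Slc11a2 fell and Slc25a37 rose. Slc11a2, the importer DMT1 that brings ferrous iron across the surface and out of endosomes, had 9.05, 9.19 and 9.12 in PLZF transgenic arrays, against 9.51 and 9.59 in wild type arrays. It fell by 0.43 ± 0.05 (SE), and its limma adjusted p of 0.0499 was the last inside the threshold among the members. Slc11a2 passed in 12 of 21 alternatives, with all the refits added after seeing the data among the 12. In fits of all genes it missed with the replicate number as a block, array weights, the intensity trend and robust fit, and each transgenic array left out. Slc25a37, mitoferrin-1, which imports iron into mitochondria, had 10.32, 10.53 and 10.47 in transgenic arrays, against 9.85 and 9.85 in wild type arrays. It rose by 0.59 ± 0.07 (SE, limma adjusted p = 0.0481), and its other row differed by 0.14. With the mean of the rows its change was 0.37 and did not pass (limma adjusted p = 0.0898). Slc25a37 passed in 12 of 21 alternatives, every added refit among them, and missed the same fits of all genes as Slc11a2. Slc25a28, which encodes mitoferrin-2, had a change of 0.29 (limma adjusted p = 0.333). The iron exporter Slc40a1 was listed at the same value of 5.51 in all 5 arrays, and Slc11a1, the phagosomal metal transporter of macrophages, had a change of 0.01. Slc4a1, the anion exchanger of red cells, had a change of 0.004, and its dimmer row differed by -0.57 with the groups overlapping. Slc41a1, a magnesium transporter, had a change of -0.13 (limma adjusted p = 0.0975).

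Mitochondrial carriers of the Slc25 family were represented by 28 genes, with the pseudogene Slc25a5-ps counted among them. Slc25a37 rose and 1 fell, where 1.72% of all genes rose and 3.02% fell. In 11 of the 28 the groups did not overlap, against 27.7% of all genes. Of these 11, 7 were higher and 4 lower, where 12.6% of all genes were apart and higher and 15.1% apart and lower. The median change was 0.0066. Slc25a12 encodes the aspartate-glutamate carrier of the malate-aspartate shuttle, which brings reducing equivalents into mitochondria. It had 9.54, 9.60 and 9.64 in PLZF transgenic arrays, against 10.43 and 10.46 in wild type arrays. The gap between groups was several times the spread within them, and it fell by 0.85 ± 0.04 (SE), 1.80-fold lower, at a limma adjusted p of 0.0102. The other 3 rows of Slc25a12 differed by -1.19, -0.96 and -0.52, all without overlap, and the gene passed in 16 of 21 alternatives.

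Slc25a24, a calcium-regulated carrier of ATP-Mg and phosphate, had 7.84, 8.14 and 8.05 in transgenic arrays, against 8.70 and 8.90 in wild type arrays. Its change of -0.79 ± 0.12 (SE) did not pass over all genes (limma adjusted p = 0.0746) and passed among genes with 5 different values (limma adjusted p = 0.0099, and 0.0033 to 0.626 over its alternatives). Slc25a17, a carrier of peroxisomes, had 10.69, 10.71 and 10.71 in transgenic arrays, against 10.00 and 10.50 in wild type arrays (limma adjusted p = 0.367). Here the wild type arrays were far apart. The phosphate carrier Slc25a3 was listed at 10.65 in all 5 arrays, and the citrate carrier Slc25a1 had a change of 0.03. Slc25a46, which encodes an outer-membrane protein, lay just outside the threshold (change 0.12, limma adjusted p = 0.0522).

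Amino acid carriers showed small differences. Of 39 genes measured, Slc6a19os and Slc36a1os among them, none rose and 1 fell, where 1.72% of all genes rose and 3.02% fell. The changes ran from -0.32 to 0.24 with a median of 0.013. Slc38a2, the system A carrier SNAT2, which cells induce when amino acids are scarce, had 12.18, 12.17 and 12.19 in PLZF transgenic arrays, against 12.26 and 12.27 in wild type arrays. The groups did not overlap, but the change was only -0.08 ± 0.01 (SE, limma adjusted p = 0.0278). It missed the threshold under each of the 3 other scalings, median centring among them. Slc38a2 also missed in the fit of genes with 5 different values (limma adjusted p = 0.232) and passed in 5 of 21 alternatives. Its relative Slc38a1, which encodes SNAT1, had 11.58, 11.66 and 11.62 in transgenic arrays, against 11.35 and 11.41 in wild type arrays, a change of 0.24 ± 0.03 (SE, limma adjusted p = 0.0645) with every transgenic array high. Both lie side by side in the reference annotation. Slc38a1 passed after cyclic loess and quantile normalization (limma adjusted p = 0.0190 and 0.0076), in a range from 0.0058 to 0.560 over its alternatives.

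Slc3a2, the heavy chain CD98 that carries system L light chains to the surface, had a change of 0.07 (limma adjusted p = 0.458). Slc43a1, a system L carrier, had a change of 0.16, the light chain gene Slc7a8 of -0.01, and the cystine transporter gene Slc7a11 was listed at the same value of 4.42 in all 5 arrays. None of them passed. The proton-coupled lysosomal carrier Slc36a1 had the lowest change of the group (-0.32, limma adjusted p = 0.209).

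No sugar carrier passed among 19 measured, where 4.74% of all genes did. Slc2a1, the glucose transporter GLUT1 induced on T cell activation, had 9.81, 9.86 and 9.84 in PLZF transgenic arrays, against 9.91 and 10.03 in wild type arrays (change -0.14, limma adjusted p = 0.295). Slc50a1, the sugar efflux transporter SWEET1, had a change of -0.09. The widest difference of the group was that of Slc5a3, the sodium-coupled importer of the osmolyte myo-inositol, with 8.85, 9.24 and 9.04 in transgenic arrays, against 9.90 and 9.94 in wild type arrays. Every transgenic array was low. Its change of -0.88 ± 0.13 (SE) missed the threshold (limma adjusted p = 0.0687), and it passed in 12 of 21 alternatives. Its other rows differed by -0.61 and -0.49.

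The inorganic ion families had 35 genes measured, with the scaffold genes Slc9a3r1 and Slc9a3r2 among them. None was higher, 2 were lower and the median change was 0. Of all genes, 1.72% rose and 3.02% fell. Slc9a3r1, the scaffold protein NHERF1 that anchors the sodium/hydrogen exchanger NHE3 and other membrane proteins to the actin cytoskeleton, fell. It had 9.63, 9.68 and 9.65 in PLZF transgenic arrays, against 10.14 and 10.18 in wild type arrays, a change of -0.51 ± 0.02 (SE, limma adjusted p = 0.0111). Its second row differed by -0.40, also without overlap. Slc4a8, a sodium-driven chloride/bicarbonate exchanger, had 6.91, 6.86 and 6.91 in transgenic arrays, against 7.08 and 7.07 in wild type arrays, a change of -0.18 ± 0.02 (SE, limma adjusted p = 0.0425). Its 2 dimmer rows differed by -1.25 and -0.46, so the size differs between rows. Slc4a8 passed in 6 of 14 alternatives. The potassium-chloride cotransporter Slc12a7 had a change of -0.05, the sodium-potassium-chloride cotransporter Slc12a2 of -0.04 and the phosphate importer Slc20a1 of 0.02, none past the test. The dimmer row of Slc20a1 differed by -0.15, with the groups overlapping.

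Among 18 nucleotide sugar and acetyl-CoA transporters none passed, where 4.74% of all genes did. Changes ran from -0.16 for Slc35b3 to 0.24 for Slc35g1, with a median of 0.0047. The GDP-fucose transporter gene Slc35c1 had a change of -0.05 and Slc35b1, of the endoplasmic reticulum, of -0.08. Slc49a4 belongs to a family that was not in the list of solutes. It encodes a lysosomal membrane protein also called DIRC2, and had 8.97, 8.94 and 8.98 in PLZF transgenic arrays, against 9.55 and 9.68 in wild type arrays. It fell by 0.65 ± 0.05 (SE, limma adjusted p = 0.0205), with every transgenic array low. Slc66a2, the other gene outside the list, had a change of -0.04.

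A list of 41 transporters known in T cells held 27 measured members, of which 0 rose and 5 fell: Slc11a2, Slc17a9, Slc38a2, Slc39a10 and Slc44a1, where 1.72% of all genes rose and 3.02% fell. Its median change was -0.0087, against 0 for all genes. The shares of all genes were not matched for level, and 14 of the 15 members past the test lay above the median gene level. Genes that partner or regulate carriers were described from a list of 20, of which 16 were measured, 1 rose and 4 fell, against the same shares of all genes, with a median of -0.04. Emb, embigin, which escorts monocarboxylate transporters to the surface, rose by 0.15 ± 0.02 (SE, limma adjusted p = 0.0460). Atp1b1, the beta subunit of the sodium pump whose gradient drives many carriers, had 9.15, 8.96 and 9.01 in PLZF transgenic arrays, against 9.96 and 10.00 in wild type arrays. It fell by 0.94 ± 0.07 (SE, limma adjusted p = 0.0210). Stk39, the kinase SPAK that phosphorylates cation-chloride cotransporters, fell by 0.77 ± 0.05, Nfe2l2, the oxidative stress factor NRF2, by 0.67 ± 0.06, and Rragd, a GTPase that signals amino acid supply to mTORC1, by 0.58 ± 0.07 (SE, limma adjusted p = 0.0199, 0.0286 and 0.0431). In all 4 the groups did not overlap. The transferrin receptor gene Tfrc, outside the naming rule and picked with its value known, had a change of -0.54 (limma adjusted p = 0.0670).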

How the data were processed

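Sorted CD4SP thymocytes of 3 PLZF transgenic and 2 wild type pools were profiled on Affymetrix mouse exon arrays. RNA was amplified with the Ambion WT Expression Kit, per the labels' protocols. The tools RMA and Affymetrix Expression Console and the build mm9 are named in the submitters' processing notes, without versions or settings. Deposited values are intensity on a linear scale, not log2. RMA usually includes quantile normalization, under which a shift common to the majority of genes would not show.

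Of 65529 rows, 14011 had 1 gene symbol in the platform annotation, 864 several and 50654 none. The highest-mean row per gene gave 12267 genes, with no filter on level. log2(intensity + 1) was fitted with lmFit and eBayes (limma 3.58.1, R 4.3.3), genotype only, 3 residual degrees of freedom. The p values were adjusted by Benjamini-Hochberg over all genes, with a threshold of 0.05. An exact permutation test of 3 against 2 arrays has 0.1 as its smallest p and was left out. Values within 0.000005 (log2) counted as identical. Levels of different genes come from different probes and are not compared. The number of arrays limits precision. The procedure was tested on simulated data.

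The members and lists were chosen with earlier results of these data known. Named were the members past the threshold, the 6 largest rises and falls, members of the T cell transporter list, and the 2 members of each solute group with the highest mean. Of the other lists, members past the threshold were named, and all measured genes of the T cell identity list. Slc15a2, Slc22a21, Slc25a28, Slc25a46, Slc30a1, Slc30a4, Slc35b3, Slc36a1, Slc39a14, Slc4a1, Slc66a2, Mtf1 and Tfrc were named outside this rule with values known. Alternatives were a replicate block, variance trend, array weights, 3 scalings, no pseudocount, row means, a dim filter, genes with 5 different values, a threshold of 0.1 and each array left out. Added after seeing the data were refits of genes with 5 different values, without each array and with the trend and robust fit. The counts and ranges over a gene's alternatives include these added refits where the gene entered them. Row means leave the levels of genes with a single row unchanged.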

Additional observations from a re-analysis of the deposited data

How the results depend on the processing

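Of the members, 4 were higher and 11 lower with all arrays. With each array left out in turn, the number higher ran from 0 to 35 and the number lower from 0 to 37. The upper ends came from leaving out a wild type array, where the remaining one takes its spread from the transgenic arrays. With array weights 0 were higher and 0 lower. With the intensity trend and robust fit 0 were higher and 8 lower, where 3.35% of all genes passed. The 4 members that had risen, Slc11a2, Slc39a10 and Slc4a8 missed that fit. After median centring 4 were higher and 14 lower, after cyclic loess 8 and 15, and after quantile normalization 11 and 13. Of all genes, 6.18%, 7.86% and 9.23% passed under these 3 scalings, in that order. With the mean of a gene's rows 2 were higher and 8 lower, where 4.54% of all genes passed. The filter on dim genes left 105 members, 5 higher and 18 lower, where 15.3% of the genes tested passed. At a threshold of 0.1 there were 9 and 17, where 8.40% of all genes passed. A trend and robust fit on genes with 5 different values, added after seeing the data, gave 6 and 17 of 51 members. Of the genes tested there, 30.8% passed. Without a pseudocount the counts were 4 and 11. The cause was not tested, beyond the fewer genes or arrays that enter some of these fits. The median change stayed between -0.13 and 0 in all of these fits. A fit with the replicate number as a block called 0 higher and 0 lower, and 0 genes in the whole table. It leaves 1 residual degree of freedom. The numbers are not said to mark a shared litter or day. Same-numbered arrays deviated with r = 0.12 and 0.03 over genes with 5 different values. With 2 wild type arrays, the deviations from their mean mirror each other (r = 0.12 and -0.12 for transgenic replicate 1). These r values therefore cannot tell whether the samples were paired. Changes that turned round were those of Slc22a15 with the mean of its rows (0.041), and, without wild type replicate 1, of Slc14a1 (-0.087), Slc22a5 (-0.032) and Slc25a1 (-0.022). Without wild type replicate 2 these 3 were 0.26, 0.18 and 0.091. Slc22a15 had passed with all arrays and the other 3 had not.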

Other observations

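Ion channels and transporters outside the solute carriers were read from the same fit, in families chosen by symbol after the members' values were seen. Of 52 potassium channel genes 1 rose and 1 fell, against 4.74% of all genes in either direction. Kcna3, the voltage-gated channel Kv1.3 that sets the membrane potential of T cells, averaged 8.83 ± 0.08 (SD, n = 3) in PLZF transgenic and 10.10 ± 0.07 (SD, n = 2) in wild type arrays, or 2.40-fold lower (limma adjusted p = 0.0138). Kcnq5, a voltage-gated channel of the KCNQ family, averaged 9.29 ± 0.10 (SD, n = 3) in transgenic and 8.02 ± 0.16 (SD, n = 2) in wild type arrays, or 2.41-fold higher (limma adjusted p = 0.0243). These Kcnq5 values are from the brightest of its 4 rows, and the other rows were not described here. Of 28 ABC transporter genes 1 rose and 2 fell, where 1.72% of all genes rose and 3.02% fell. Abcg1, which exports cholesterol, fell by 0.62 ± 0.06 (SE, limma adjusted p = 0.0315), Abcd2, a peroxisomal transporter of fatty acids, fell by 0.35, and Abcc1, a glutathione conjugate exporter, rose by 0.34. Of 41 ATPase genes Atp1b1 and the phospholipid flippase gene Atp11b fell and none rose, against the same shares of all genes. Of 16 Mfsd genes Mfsd5 and Mfsd6 rose and none fell, and of 6 Slco genes 0 passed, again against these shares.

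Some array rows carry several symbols and were not among the members. The row shared by Slc28a2 and Slc28a2b, which encode concentrative nucleoside transporters, had 8.17, 8.28 and 8.22 in PLZF transgenic arrays, against 8.65 and 8.78 in wild type arrays. The row shared by Mrps6 and Slc5a3 had 7.49, 7.68 and 7.68 in transgenic arrays, against 7.73 and 7.93 in wild type arrays. In both the transgenic arrays were low, as they were in the 3 rows of Slc5a3 alone. These rows were not tested.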
